A study of Mus musculus with 136 samples.

Results

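Embryos that had formed 7, 8 or 9 pairs of somites at embryonic day 8.5 were compared between diabetic and normal dams, 16 embryos of each, and they were chosen by the somite number on the sample labels. These 32 libraries were part of 136 in the whole series, which also held younger embryos, the yolk sac of each conceptus and duplicate libraries. All dams and embryos were of the NOD strain, whose females become hyperglycemic spontaneously, and all dams received the same chow. Diabetes was defined by a blood glucose above 250 mg/dl, and males without hyperglycemia sired the litters of diabetic dams. On the labels the dams' glucose ran from 423 to 568 mg/dl in the diabetic and from 109 to 135 mg/dl in the normal group. The diabetic embryos came from 6 litters, of which litter D24M15 alone gave 7 embryos, and the normal embryos came from 7 litters of at most 4 embryos each. Littermates share a dam, so the 16 embryos of a group are not 16 independent exposures, and results are given by embryo and by litter.

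At these stages the neural folds rise and begin to meet, the heart is a tube that starts to contract, and somites are added from the presomitic mesoderm at the caudal end. The embryo feeds through the yolk sac and relies heavily on glycolysis. Maternal diabetes at this time is known as a risk factor for neural tube and heart defects, and the comparison asks how the transcriptome of the embryo itself differs when the dam is diabetic. Whole embryos were measured, so fewer cells of a type and less RNA per cell cannot be told apart.

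Libraries held 1687699 to 3348745 counts (median 2153047) in the normal and 1330731 to 3093423 (median 2146897) in the diabetic group. The numbers of embryos with 7, 8 and 9 somite pairs were 7, 4 and 5 in the normal and 4, 9 and 3 in the diabetic group. Markers of heart, neural plate, somite and neural crest were present in all libraries, and the level of Xist and of Y-linked genes separated the 17 embryos labelled male from the 15 labelled female. Short non-coding RNA, that is small nuclear, nucleolar and other short species, differed most clearly between the groups as a library feature. It took 871 to 1819 CPM (counts scaled to a common library size, median 1233) in normal and 903 to 5434 (median 3195) in diabetic libraries, and 15 of 16 diabetic libraries lay above the highest normal one (exact permutation test over litters, p = 0.00408). Summed visceral endoderm markers lay between 44.5 and 654 CPM in normal and between 65.5 and 1538 in diabetic embryos, and summed primitive erythroid markers between 12.4 and 741 and between 20.2 and 2288. For both, 3 diabetic embryos lay above the highest normal one, and the litter means did not differ detectably (exact permutation p = 0.487 and 0.199).

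**Figure D1:**
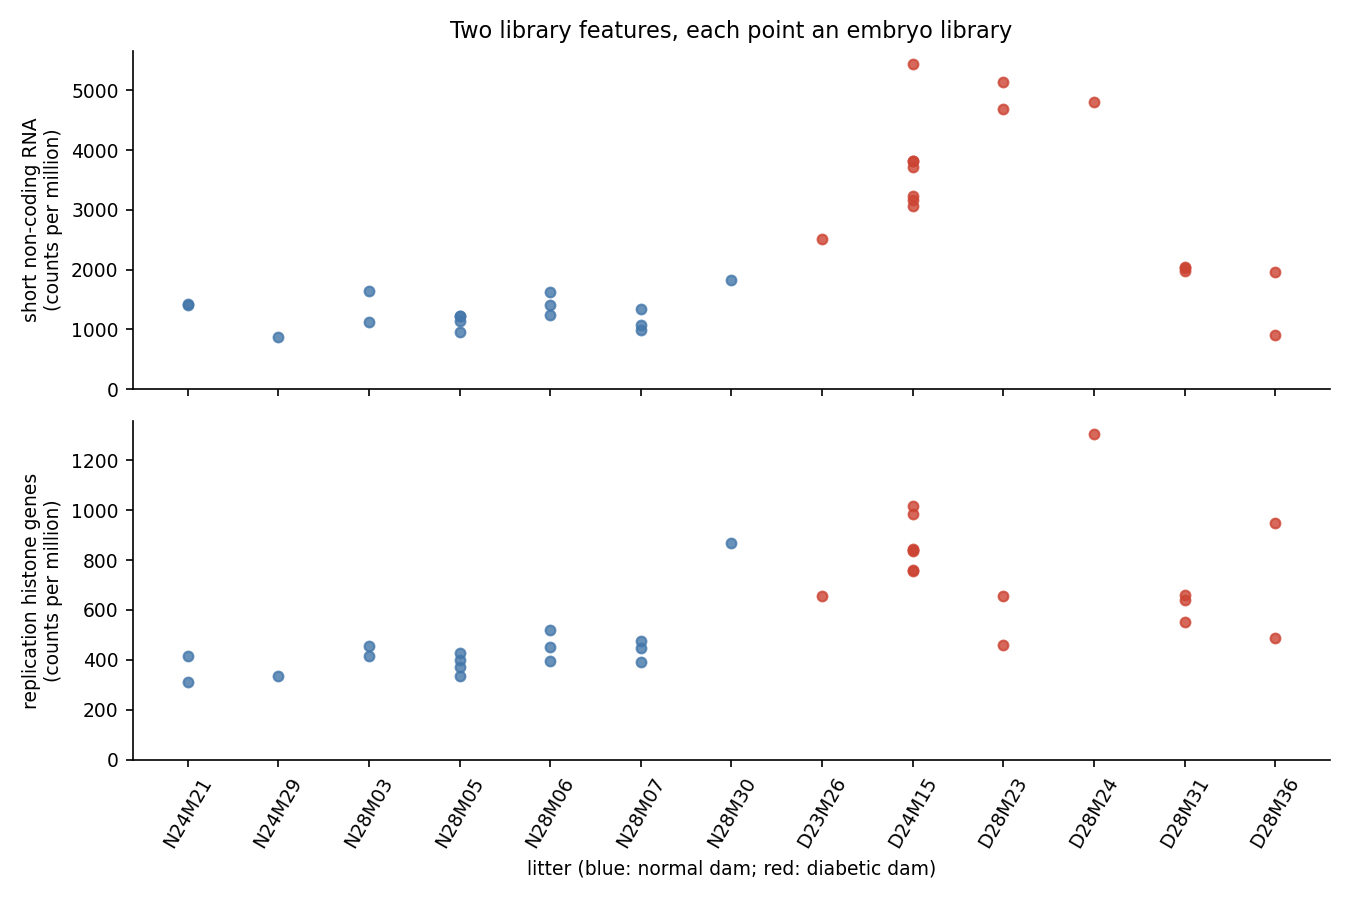
CPM taken by short non-coding RNA (top) and by replication histone genes (bottom), each point 1 embryo library, ordered by litter, with normal dams in blue and diabetic dams in red. Short non-coding RNA lies at or below 1819 in every normal library and above it in 15 of 16 diabetic libraries, the exception being an embryo of litter D28M36 at 903.

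Among diabetic libraries a pair, both from litter D24M15, stood apart. In D24M15J, labelled with 8 somite pairs, the summed Hox genes reached 222 CPM against 921 to 1603 in the other 31 libraries. The axial progenitor genes T (4.28 against 27.8 to 73.7) and Cdx2 (0.988 against 16.4 to 58.1) were likewise below the range of the others, and Cdx4 had no count against 28.2 to 103. The forebrain genes Otx2 (191 against at most 141) and Six3 (189 against at most 141) were above it, while the somite gene Meox1 (30) and the heart gene Nkx2-5 (19.1) lay within. D24M15G, labelled male, held 91.9 CPM of Xist, and in its duplicate library Afp (343 in D24M15G, 104 in the duplicate) and Hbb-bh1 (372 and 104) were lower. Leaving both out gave 531 genes higher and 370 lower in the comparison of groups, against 553 and 413 with them. Of the called genes named here, Hnrnpll, Srsf5, Ei24, Il17rd, Fn1 and Fbln1 then missed the threshold (adjusted p = 0.0512 to 0.0697).

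Of 10628 genes tested with edgeR, 553 (5.2%) were higher and 413 (3.89%) were lower in diabetic embryos at an adjusted p under 0.05. Protein-coding genes made up 495 of the higher (4.88% of 10138) and 364 of the lower (3.59%), with a median log2 fold change over all of them of -0.01. Most differences were small, and 449 of the 495 and 321 of the 364 changed by less than 1.5-fold. Within the litters whose name carries 28 (13 normal and 8 diabetic embryos), a number whose meaning the labels do not give, 534 genes were higher and 274 lower. With litter as a random block, 178 protein-coding genes were higher (1.76%) and 86 lower (0.848%). With counts summed per litter, 802 of the 859 called protein-coding genes kept their direction at an unadjusted p under 0.05. Both fits use the same counts, so this is no separate support. Over all genes, 2045 of 12064 had an unadjusted p under 0.05 on litter sums, and only 8 passed after adjustment. When the share of short non-coding RNA entered as a covariate, 3 genes were called higher and 0 lower. That share separates 15 of 16 diabetic libraries from all normal ones, so its part in each difference and that of the dam's diabetes cannot be told apart.

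Transcript length moved with the calls. Of genes whose annotated transcripts had a median under 1000 bases, 11.3% were higher and 1.63% lower, and of those of 6000 bases and over, 0.64% were higher and 10.6% lower. The median length was 1156 bases in the higher, 3290 in the lower and 2225 in all protein-coding genes tested. Across 10133 genes, the log2 fold change had a Spearman correlation of -0.26 with length and of 0.28 with GC content, where genes are not independent replicates. After trends on both were removed in each library, 430 genes were higher and 260 lower over all genes. The counts of that fit are given beside some of the gene groups.

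**Figure D2:**
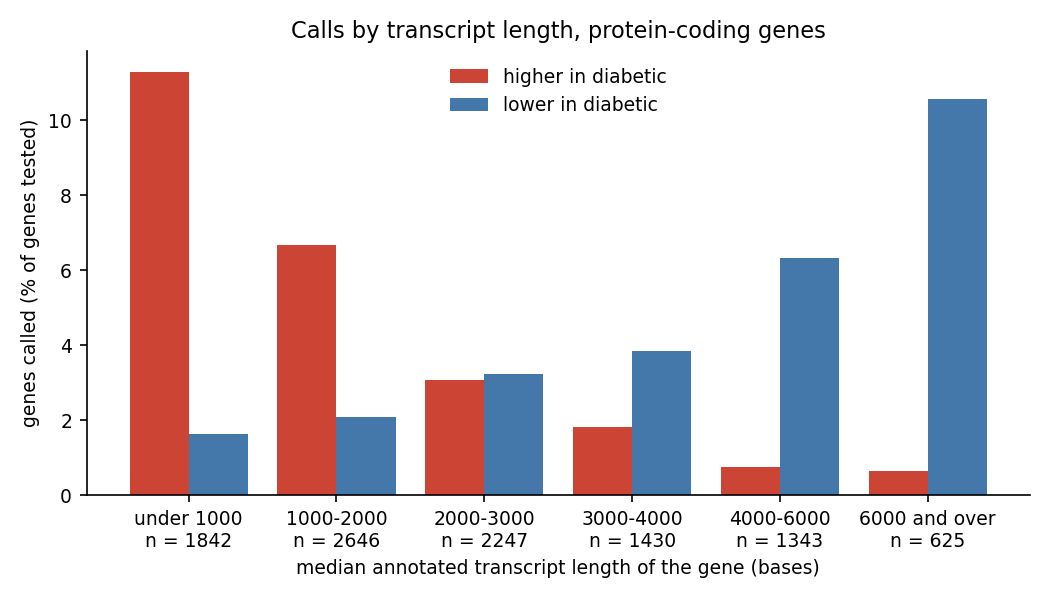
Percent of protein-coding genes called higher (red) or lower (blue) in diabetic embryos, by the median length of the gene's annotated transcripts in bases, with the number of genes tested under each pair of bars. The share called higher falls from 11.3% to 0.64% and the share called lower rises from 1.63% to 10.6% from the shortest to the longest class.

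In cells the factors MondoA (gene Mlxip) and ChREBP respond to glucose phosphates and act with Mlx on promoters with E-box-like elements, and Arrdc4 and Txnip are their best known targets. Arrdc4, an arrestin-domain protein that limits glucose uptake, was higher in diabetic embryos, while Txnip was not detectably different. The window from 250 bases before to 50 after the Arrdc4 start (RefSeq, GRCm38.p6, chr7:68749189-68749488, minus strand) is shown because it holds an E-box, the palindrome CACGTG, in capitals. Its last 50 bases belong to the transcript, and the gene itself lies at chr7:68736995-68749241.
Arrdc4: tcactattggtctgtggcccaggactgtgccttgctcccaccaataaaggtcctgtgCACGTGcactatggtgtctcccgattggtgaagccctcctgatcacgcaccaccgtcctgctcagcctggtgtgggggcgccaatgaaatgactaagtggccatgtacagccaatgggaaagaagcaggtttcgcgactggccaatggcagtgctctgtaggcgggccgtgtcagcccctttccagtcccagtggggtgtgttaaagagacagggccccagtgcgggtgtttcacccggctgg
The E-box begins 193 bases before the start, and the same 6 letters occur in 2349 of 32851 promoter windows of this length (7.15%), so the match is a description.

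Arrdc4 ran from 6.94 to 20.5 with a median of 12.2 normalised counts in normal and from 14.5 to 37.4 with a median of 22.7 in diabetic embryos. In all, 11 of 16 diabetic embryos lay above the highest normal one. The log2 fold change was 0.84 ± 0.14 (standard error; adjusted p = 0.000381; exact permutation p over litters = 0.00117). All diabetic litter means, 20.1 to 24.8, lay above all normal litter means, 9.54 to 18.1. With the share of short non-coding RNA as a covariate Arrdc4 was not called (adjusted p = 0.278). Values given with ± are throughout the log2 fold change of diabetic over normal embryos with its standard error. Txnip, the other textbook target, had a mean of 66.2 in normal and 73.9 in diabetic embryos (log2 fold change 0.20 ± 0.33, adjusted p = 0.715). Mlxip itself ran from 27.2 to 60.4 with a median of 45.6 in normal and from 14.5 to 44.5 with a median of 36.9 in diabetic embryos and differed by -0.46 ± 0.13 (adjusted p = 0.0267, and up to 0.0758 with 1 litter left out, N28M05). Of 7 glucose-responsive genes tested, those were the only members called.

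Glycolytic enzymes were higher as far as they were called. Of 21 tested, 6 were higher and 0 lower (28.6%), with a median log2 fold change of 0.21, and these were Gpi1, Pfkl, Aldoa, Pgam1, Pkm and Ldha, which span the path from glucose 6-phosphate to lactate. Gpi1, which turns glucose 6-phosphate into fructose 6-phosphate, ran from 286 to 438 with a median of 346 in normal and from 352 to 859 with a median of 497 in diabetic embryos, with 10 embryos above the normal range. It differed by 0.51 ± 0.10 (adjusted p = 0.00266; exact permutation p = 0.000583, the smallest that the splits of the litters allow). Aldoa, which splits fructose bisphosphate, ran from 1032 to 1547 with a median of 1320.2 and from 1334 to 2596 with a median of 1620.4, again with 10 embryos above the normal range (0.38 ± 0.08, adjusted p = 0.00416). Pfkl, the committed step, ran from 183 to 335 with a median of 288 and from 245 to 528 with a median of 333, so that the groups overlapped more (0.36 ± 0.10, adjusted p = 0.0178, exact permutation p = 0.0495). The changes of Pgam1 (0.40), Pkm (0.25) and Ldha (0.21, means 3403 and 3940.5) were of the same order. Hexokinases were not called, with means of 37.6 and 49.3 for Hk1 (adjusted p = 0.0551) and of 609 and 564 for Hk2 (0.459). The glucose transporters Slc2a1 (-0.10 ± 0.08, adjusted p = 0.424) and Slc2a3 (-0.06 ± 0.07, adjusted p = 0.6) were not called either, and they are given because the study concerned nutrient transporters. Counts for glycolysis were 2 higher with litter as a block, 3 with length and GC trends removed, 3 without litter D28M23 and 8 without D24M15. Of 9 polyol and hexosamine pathway genes 0 were called in either direction, with Gfpt1, the entry enzyme of the hexosamine path, at -0.32 ± 0.12 (adjusted p = 0.0907).

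**Figure D3:**
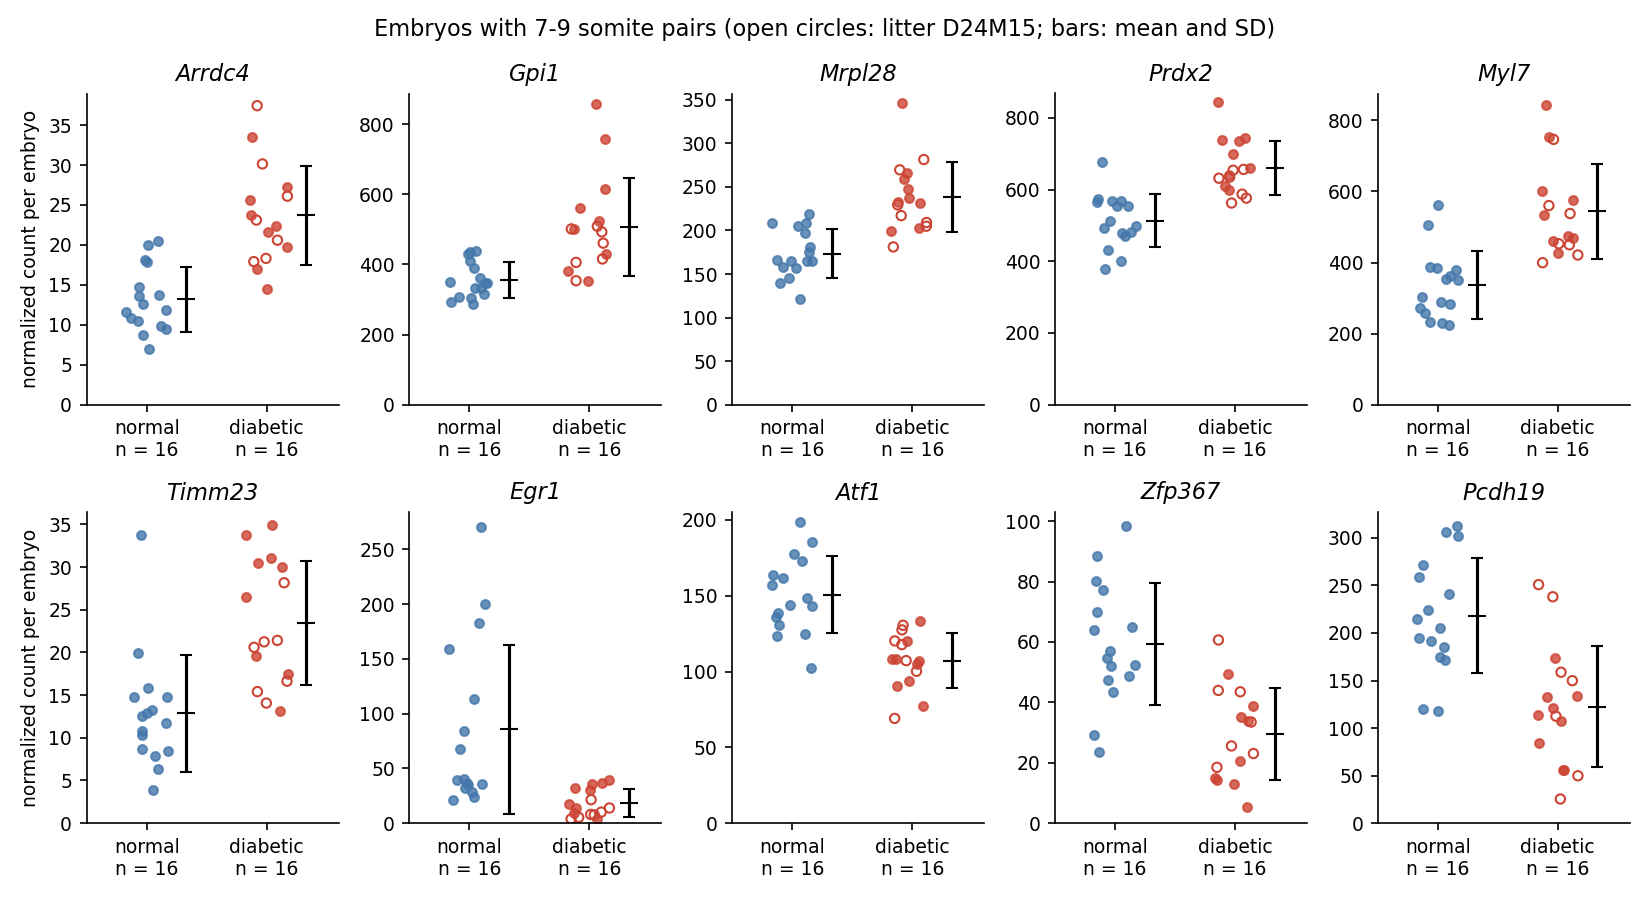
Normalised counts of 10 named genes in each embryo, a point per embryo and a panel per gene, with normal dams in blue, diabetic dams in red and litter D24M15 as open circles; black bars give mean and SD (n = 16). The diabetic embryos sit higher in the panels of Arrdc4, Gpi1, Mrpl28, Prdx2, Myl7 and Timm23 and lower in those of Egr1, Atf1, Zfp367 and Pcdh19, with overlap in each.

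Genes of the respiratory chain and of both ribosomes held many calls, all of them higher. Of 77 nuclear genes of the respiratory chain 24 were higher (31.2%) and 0 lower, with a median of 0.20 beside -0.01 for all protein-coding genes. The calls covered complex I (10 of 35), complex II (1 of 4), complex III (4 of 9), complex IV (4 of 13) and ATP synthase (4 of 15), besides cytochrome c itself (Cycs, 0.39 ± 0.10). Ndufa11, a complex I subunit, ran from 164 to 263 with a median of 224 in normal and from 202 to 430.2 with a median of 280.2 in diabetic embryos, with 10 above the normal range (0.39 ± 0.09, adjusted p = 0.00628). Ndufs7, an iron-sulfur subunit of the same complex, ran from 84.8 to 224 with a median of 131 and from 126 to 265 with a median of 179.7 (0.45 ± 0.11), and the complex IV subunit Cox6a1 from 313 to 598 with a median of 366 and from 409.7 to 633 with a median of 488 (0.35 ± 0.08), where only 1 diabetic embryo exceeded the highest normal one. Genes encoded by the mitochondrial genome were not called, 0 of 7, but their median was 0.21, with 5 of the 7 above 0. With trends removed 2 of the 7 were called higher. Among them mt-Nd4 had means of 17183 and 17727 (0.04 ± 0.15). The nuclear transcripts of the respiratory chain are short, with a median of 683 bases. The count of nuclear calls fell to 8 with litter as a block, to 10 with trends removed and to 8 without litter N28M05.

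The called ribosomal protein genes of both compartments were higher, and most members were not called. Of 80 cytosolic ones 18 were higher (22.5%) and 0 lower (median 0.10, and 0.02 with trends removed), 8 of 33 in the small and 10 of 47 in the large subunit. Of 73 mitochondrial ones 18 were higher (24.7%) and 0 lower (median 0.16), 4 of 26 in the small and 14 of 47 in the large subunit. Rps19 ran from 472 to 824 with a median of 556 in normal and from 624 to 1151 with a median of 719.7 in diabetic embryos (0.41 ± 0.09, adjusted p = 0.00388). Rpl8 ran from 2510.3 to 3962 with a median of 3228 and from 3263 to 6279 with a median of 3876 (0.36 ± 0.08, adjusted p = 0.00619). For Rps19 and Rpl8, 5 and 7 diabetic embryos lay above all normal ones. Among mitochondrial members, Mrpl28 ran from 122 to 219 with a median of 165 and from 181 to 346 with a median of 232 (0.45 ± 0.08, adjusted p = 0.00126) with 10 embryos above the normal range. Mrpl18 differed by 0.32 ± 0.06 and Mrps24 by 0.40 ± 0.08, the latter without any embryo beyond the normal range. Timm23, part of the channel that imports proteins into mitochondria, ran from 3.90 to 33.7 with a median of 12.1 and from 13.2 to 34.9 with a median of 21.3 (0.90 ± 0.19, adjusted p = 0.00435, exact permutation p = 0.000583). With litter as a block 8 cytosolic and 10 mitochondrial ribosomal genes were called, and with trends removed 13 and 16. Without litter N28M05 the counts were 7 and 9. Ribosomal protein genes have many processed copies in the genome, so reads may be split or lost between copies. In ribosome biogenesis 3 of 25 were higher, Bop1 (0.47 ± 0.10), Nop56 (0.34 ± 0.08) and Pes1 (0.31 ± 0.09), and Utp20 was lower (-0.23 ± 0.07, a call lost without any 1 of 3 litters).

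**Figure D4:**
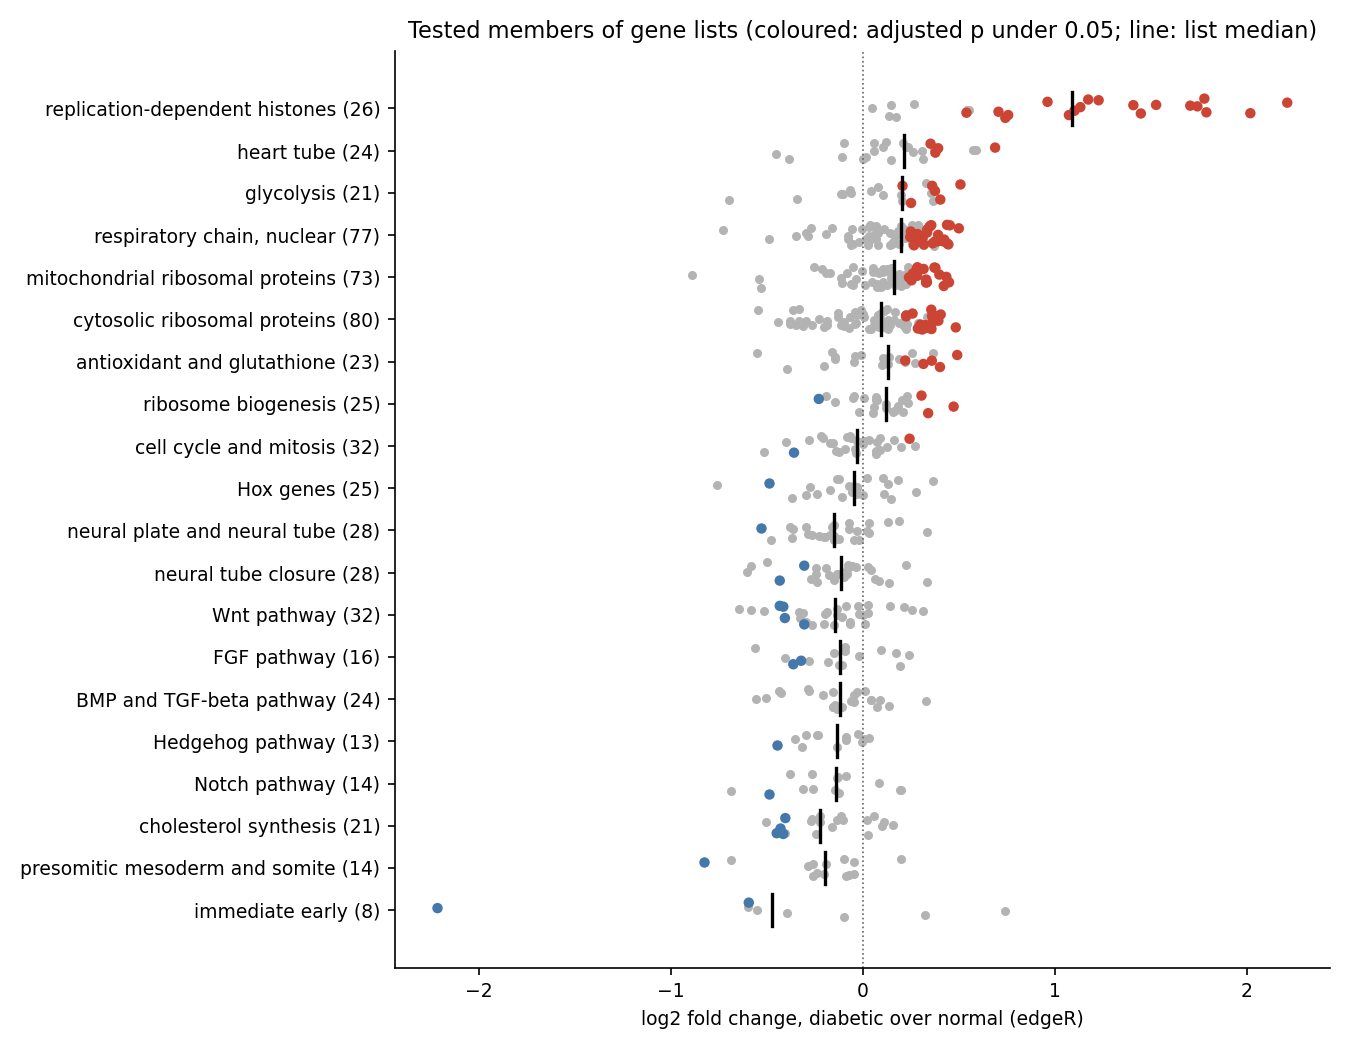
Log2 fold change (diabetic over normal) of each tested member of a gene list, with members called higher in red, called lower in blue and not called in grey, the number tested in parentheses and the list median as a black line. Replication histones (19 of 26 higher, median 1.09) lie farthest to the right, and the calls of cholesterol synthesis (4 of 21) and the Wnt pathway (4 of 32) lie on the left.

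Genes of the defence against peroxides and superoxide were higher in part. Of 23 antioxidant and glutathione genes 5 were higher (21.7%) and 0 lower: Prdx2, Prdx6, Sod1, Gsta4 and Gss. Prdx2, a peroxiredoxin that removes hydrogen peroxide, ran from 379 to 676 with a median of 506 in normal and from 562 to 845 with a median of 647 in diabetic embryos (0.36 ± 0.07, adjusted p = 0.00189, exact permutation p = 0.000583). Gsta4, a glutathione transferase that clears the lipid peroxidation product hydroxynonenal, ran from 144 to 273 with a median of 165 and from 174 to 287 with a median of 222 (0.40 ± 0.09, adjusted p = 0.00411). Gss, which makes glutathione, had 8 of 16 diabetic embryos above the normal range (10.7 to 28.7 with a median of 20.6 against 19.4 to 40.8 with a median of 28.7, log2 fold change 0.49 ± 0.12). Sod1 differed by 0.32 ± 0.10 and Prdx6 by 0.22 ± 0.06. The list had 3 calls with litter as a block and 4 with trends removed.

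Stress lists are set beside 4.88% of all protein-coding genes called higher and 3.59% called lower. Higher were 4.76% of the unfolded protein and integrated stress, 12.5% of the heat shock, 5.56% of the hypoxia and 11.1% of the p53 genes. Of the last 5.56% were lower, and of the others 0. Of 21 genes of the unfolded protein and integrated stress responses only the chaperone Calr was higher, from 763 to 1731 with a median of 1130.5 and from 1096 to 2613 with a median of 1582 (0.46 ± 0.11), and Hspa5 (0.09 ± 0.10, adjusted p = 0.559) and Ddit3 (0.08 ± 0.16, adjusted p = 0.783) were not. Without litter D24M15 4 of 22 were higher, beside 564 of 10355 protein-coding genes, and with litter as a block 1 of 21. Of 16 heat shock genes Hsp90aa1 (0.38 ± 0.10) and Fkbp4 (0.28 ± 0.09) were higher, but the litter means of Hsp90aa1 did not differ detectably (exact permutation p = 0.228) and the call of Fkbp4 was lost without any 1 of 9 litters. Of 18 hypoxia genes 1 was higher, the cytokine Mif (1243 to 2094 with a median of 1549 against 1597 to 2411 with a median of 1987, 0.32 ± 0.07), and Vegfa was not called (-0.23 ± 0.15, adjusted p = 0.328). Among 18 p53 targets, Ccng1 (0.45 ± 0.11, adjusted p = 0.00813) and Phlda3 (0.64 ± 0.17, adjusted p = 0.0151), an inhibitor of Akt, were higher. Phlda3 ran from 3.89 to 13.8 with a median of 10.2 in normal and from 6.70 to 23.7 with a median of 15.3 in diabetic embryos, with 11 above the normal range. Ei24 was lower (-0.28 ± 0.09) but lost its call without any 1 of 10 litters, and Cdkn1a was not called (0.36 ± 0.15, adjusted p = 0.120).

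Of 24 heart tube genes tested 4 were higher (16.7%), the contractile genes Myl7, Actc1, Myl4 and Acta2, 0 were lower, and the median was 0.22. Myl7 (chr11:5896637-5898782), the atrial regulatory light chain that is present throughout the early tube, ran from 224 to 563 with a median of 327 in normal and from 399.6 to 845 with a median of 503 in diabetic embryos. It differed by 0.69 ± 0.12 (adjusted p = 0.000701, exact permutation p = 0.00291), with 5 embryos above the normal range. Actc1, cardiac actin, ran from 612 to 1222 with a median of 934 and from 979.9 to 1547 with a median of 1177 (0.39 ± 0.09, adjusted p = 0.00740, exact permutation p = 0.000583). Myl4, the atrial essential light chain, ran from 96.5 to 202 with a median of 149 and from 133 to 262 with a median of 181 (0.38 ± 0.10), and Acta2, smooth muscle actin, differed by 0.35 ± 0.11 (adjusted p = 0.0410). Nkx2-5 had means of 24.3 and 25.4 (adjusted p = 0.854), and Tnnt2, cardiac troponin, of 185 and 215 (0.21 ± 0.11, adjusted p = 0.219). The list had 2 calls with litter as a block, 1 with trends removed and 2 without litter N28M05. With somite number and sex as covariates the log2 fold change of Myl7 was 0.64 (adjusted p = 0.00276).

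Of 32 Wnt pathway genes 4 were lower (12.5%) and 0 higher (median -0.14), namely the co-receptor Lrp6, the ligand Wnt5a, the nuclear effector Lef1 and the planar polarity cadherin Celsr1. Lrp6 ran from 112 to 235 with a median of 172 in normal and from 78.5 to 196 with a median of 133 in diabetic embryos (-0.43 ± 0.11, adjusted p = 0.0159, exact permutation p = 0.000583), with 4 embryos below the normal range. Wnt5a ran from 125 to 233 with a median of 173 and from 73.5 to 195 with a median of 136 (-0.41 ± 0.12), Celsr1 from 54.4 to 92.7 with a median of 72.5 and from 38.5 to 78.5 with a median of 60.7 (-0.31 ± 0.09), and Lef1 differed by -0.41 ± 0.12. The diabetic range began below the normal one in Lrp6, Wnt5a and Celsr1, and the groups overlapped in each. Both Lrp6 and Celsr1 also stand in the list of neural tube closure genes, where they were the only calls of 28 tested (7.14% lower, median -0.11). The Wnt list had 1 call with litter as a block, 3 with trends removed and 1 without litter D28M31, and its transcripts are long, with a median of 2980 bases.

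Other signalling lists held 0 to 2 calls each. The share lower was 7.69% for Hedgehog, 12.5% for FGF and 7.14% for Notch, beside 3.59% of all protein-coding genes. The share higher was 6.67% for retinoic acid and 5.56% for folate and purine synthesis, beside 4.88%. Ptch1, the Hedgehog receptor and a transcriptional target of the pathway, ran from 245 to 434 with a median of 383 in normal and from 124 to 384 with a median of 279 in diabetic embryos (-0.45 ± 0.11, adjusted p = 0.0137, exact permutation p = 0.0198), the single call among 13 Hedgehog genes. Fgfr1 (-0.32 ± 0.09) and the FGF feedback inhibitor Il17rd (-0.36 ± 0.11) were lower among 16 FGF genes, but the litter means of Il17rd did not differ detectably (exact permutation p = 0.0950). Jag1, a Notch ligand, ran from 119 to 244 with a median of 164 and from 59.2 to 219.8 with a median of 121 (-0.49 ± 0.15, exact permutation p = 0.000583), 1 call among 14 Notch genes. Of 24 BMP and TGF-beta genes 0 were called, the most abundant being Id3 (-0.15 ± 0.14, adjusted p = 0.477) and Id2 (-0.05 ± 0.11, adjusted p = 0.801). In the retinoic acid list 1 of 15 was higher, Crabp1, a cytoplasmic binding protein of the hindbrain and neural crest, at 752 to 1290.2 with a median of 942 against 954 to 2364 with a median of 1233.5 (0.43 ± 0.11, adjusted p = 0.0135). In folate and purine synthesis 1 of 18 was higher, the folate transporter Slc46a1 (9.66 to 32.7 with a median of 18.7 against 17.2 to 42.1 with a median of 28.8, 0.51 ± 0.14). With litter as a block Ptch1 was called (adjusted p = 0.0302), while Fgfr1 (0.0548), Jag1 (0.0548), Crabp1 (0.0547) and Slc46a1 (0.0606) were not. With trends removed the Notch and retinoic acid lists had 0 calls, and the Hedgehog, FGF and folate lists had 1 each.

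Regional marker lists are set beside 4.88% of all protein-coding genes called higher and 3.59% called lower. The share higher was 7.14% in neural crest and 11.1% in surface ectoderm. The share lower was 3.57% in neural plate, 7.14% in presomitic mesoderm and somites and 4% in Hox genes. Of 28 neural plate genes 0 were higher, with a median of -0.15, and Sox2 (-0.20 ± 0.09) and Pax6 (-0.15 ± 0.13) were not called. Without library D24M15J 4 of 29 tested were lower (median -0.24), beside 395 of 10125 protein-coding genes. Without litter D24M15 3 of 30 were lower, and with litter as a block 0 of 28. Of 14 neural crest genes 1 was higher, Sox10, a factor of migrating crest and of the otic placode, from 24.5 to 69 with a median of 33.2 and from 35.4 to 120.2 with a median of 51.3 (0.57 ± 0.16, adjusted p = 0.0262, and 0.124 without litter D24M15). Pax3, which marks dorsal neural tube and somites and whose loss is known to cause neural tube defects, had means of 120.2 and 108 (-0.15 ± 0.12, adjusted p = 0.406). In presomitic mesoderm and somites 1 of 14 was lower, the protocadherin Pcdh19, from 118 to 313 with a median of 209.6 and from 25.4 to 251 with a median of 117 (-0.83 ± 0.20, adjusted p = 0.0107), with 8 of 16 diabetic embryos below the normal range. Of 25 Hox genes 1 was lower, Hoxb3 (83.3 to 187 with a median of 116 against 31.6 to 163 with a median of 82.7, -0.49 ± 0.15, a call lost without any 1 of 6 litters). No call was made among 13 tailbud, 7 notochord, 8 visceral endoderm, 3 primitive erythroid, 10 endothelial, 7 allantois or 1 trophoblast genes. In visceral endoderm the median of the tested genes stood at 0.52 and in erythroid cells at 1.23, with standard errors such as 0.52 ± 0.38 for Ttr and 1.63 ± 0.64 for Hba-x. The visceral endoderm median was 0.24 without library D24M15G and 0.10 with litter as a block, but 0.61 both without litter D24M15 and with trends removed. Of 4 primitive erythroid genes tested, 1 was called higher without litter D24M15 and 2 within the litters whose name carries 28. In surface ectoderm the keratin Krt19 was higher (28.9 to 49.3 with a median of 38.9 against 29.5 to 69.3 with a median of 51, 0.34 ± 0.09), 1 of 9. With litter as a block Pcdh19 was called (adjusted p = 0.0368), while Sox10 (0.0933), Hoxb3 (0.0801) and Krt19 (0.0801) were not. Library D24M15J gave the lowest diabetic value of Pcdh19 (25.4), Hoxb3 (31.6) and Krt19 (29.5) and the highest of Sox10 (120.2). Without this library each of their lists still held 1 call.

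Sterol synthesis was lower in 4 of 21 genes (19%) and higher in 0, with a median of -0.22. Hmgcs1, which makes the precursor of mevalonate, ran from 408 to 701 with a median of 614 in normal and from 316 to 671 with a median of 410.1 in diabetic embryos (-0.43 ± 0.10, adjusted p = 0.00669, exact permutation p = 0.0455). Lss, lanosterol synthase, ran from 27.6 to 51.8 with a median of 42.3 and from 18.4 to 57.3 with a median of 26.3 (-0.45 ± 0.12), and Sc5d, a late enzyme, differed by -0.40 ± 0.13. Without litter D24M15 0 of these 21 genes were called, and without library D24M15J 2 were. The list had 1 call with litter as a block and 4 with trends removed. In the fatty acid list 2 of 20 were higher, Acaa2 (0.48 ± 0.14) and Etfb (113 to 209.8 with a median of 158 against 141 to 305 with a median of 207, 0.40 ± 0.10), both of beta oxidation, while Fasn was not called (0.09 ± 0.10, adjusted p = 0.616).

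Among lists with any call, that of the replication-dependent histones had the largest median difference. Their messages end in a stem-loop in place of a poly(A) tail, and the library method primes on poly(A), so in principle it records them only where a tail or an internal run of A is present. Of 26 tested 19 were higher (73.1%) and 0 lower, with a median of 1.09, in H1 (4 of 5), H2A (1 of 5), H2B (4 of 6), H3 (4 of 4) and H4 (6 of 6). The stem-loops of a few called members are shown because they mark these genes as a class, with the stem in capitals and the loop in lower case, from the annotated GRCm38 transcripts.
Hist2h4: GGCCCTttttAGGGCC
Hist1h4d: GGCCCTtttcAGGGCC
Hist1h2bk: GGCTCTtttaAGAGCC
Hist1h3e: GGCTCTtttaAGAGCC
The pattern GGNNCTTTTNAGNGCC was searched on the transcript strand only and occurs in 45 of 21559 protein-coding genes (0.209%). It was found in 40 of the 65 replication histone genes searched. It occurs in 19 of the 26 tested histone genes, and 13 of those 19 were among the calls. As 19 of the 26 were called in all, the remaining calls were tested histone genes without the pattern, so calls were not limited to genes that hold it.

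Hist2h4 ran from 2.11 to 22 with a median of 7.96 in normal and from 7.90 to 96.9 with a median of 39.8 in diabetic embryos (2.21 ± 0.29, adjusted p = 6.89e-06, exact permutation p = 0.00350). Hist1h4d ran from 0 to 22 with a median of 4.93 and from 3.29 to 53.7 with a median of 24.5 (2.02 ± 0.30), Hist1h2bj from 6.04 to 61.9 with a median of 27.2 and from 11.2 to 294 with a median of 87.3 (1.78 ± 0.31), and Hist1h1d from 6.04 to 47.9 with a median of 13.8 and from 8.56 to 97.9 with a median of 56 (1.74 ± 0.27). In each of these 4 genes 10 of 16 diabetic embryos lay above all normal ones, and the remaining ones overlapped them. Hist1h2bk (1.41 ± 0.20), Hist1h2bc (1.45 ± 0.22), Hist1h3e (1.71 ± 0.28), Hist4h4 (1.79 ± 0.29) and Hist1h4n (1.10 ± 0.22) followed, and Hist1h3b (1.53 ± 0.33) was called by embryo while its litter means did not differ detectably (exact permutation p = 0.0927). As a share of all counts these genes took 310 to 867 CPM in normal (median 416) and 461 to 1307 in diabetic libraries (median 757; exact permutation p = 0.0163). The number of calls was 13 with litter as a block, 15 with trends removed and 11 without litter D24M15. Histone copies are near identical, so the assignment of reads to single genes is uncertain.

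In the same libraries short non-coding RNA was higher, 38 of 55 genes tested and 0 lower (median 1.09), among them Rn7sk, the RNA of the 7SK particle, from 2.11 to 29.5 with a median of 4.97 and from 1.32 to 132 with a median of 49.9 (2.41 ± 0.39). The named protein-coding gene with the largest rise, Tmem245, ran from 136 to 602 with a median of 216 and from 111 to 2713 with a median of 1011 (2.28 ± 0.29). Its litter means were 136 to 434 in normal litters and, in diabetic ones, 191 in D28M36, 768 in D28M31, 783 in D28M23, 934 in D23M26, 1809.7 in D24M15 and 1975 in D28M24. Litter means of short non-coding RNA were, in the same order, 1427, 2013, 4915, 2505, 3746 and 4803 CPM. Other proliferation genes were mostly not called. Of 32 cell cycle genes 3.1% were called in each direction, beside 4.88% of all protein-coding genes higher and 3.59% lower. Mcm7 was higher (0.24 ± 0.08) and Ccnd1 lower (656 to 1103 with a median of 953 against 388 to 957 with a median of 706, -0.36 ± 0.10). Thymidylate synthase (Tyms), of S phase, had means of 279 and 281 (adjusted p = 0.955).

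Among named genes that were lower, the immediate early factor Egr1 had the largest difference. It ran from 21.5 to 271 with a median of 40.1 normalised counts in normal and from 3.84 to 39.5 with a median of 14.1 in diabetic embryos, and 11 of 16 diabetic embryos lay below all normal ones. The log2 fold change was -2.22 ± 0.38 (adjusted p = 0.000381, exact permutation p = 0.00583). Normal litters themselves ranged widely, from a mean of 30.5 in N28M06 to 165 in N28M07, and the highest diabetic litter mean was 36.5. Dusp1, an immediate early phosphatase of MAP kinases, ran from 27.8 to 91.7 with a median of 48.7 and from 9.21 to 42.8 with a median of 34.9 (-0.59 ± 0.16). Egr1 and Dusp1 were the calls among 8 immediate early genes tested (25% lower, beside 3.59% of all protein-coding genes). The list median was -0.47, and 2 of the 8 lay above 0. With litter as a block 1 was called lower, and without litter D24M15 1 was lower and 1 higher.

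Atf1, a CREB family factor, showed a smaller but regular difference, from 103 to 199 with a median of 146 in normal and from 69.1 to 134 with a median of 108 in diabetic embryos (-0.49 ± 0.09, adjusted p = 0.000917, exact permutation p = 0.000583). Btg1, an antiproliferative regulator, ran from 20 to 103 with a median of 66.5 and from 19.6 to 54.7 with a median of 34.6 (-0.92 ± 0.17, adjusted p = 0.000847). Zfp367 ran from 23.5 to 98.4 with a median of 55.8 and from 5.26 to 60.7 with a median of 29.5 (-0.96 ± 0.21), and the atypical cadherin Fat1 from 81.6 to 303 with a median of 160.4 and from 31.6 to 204 with a median of 99.7 (-0.81 ± 0.21, exact permutation p = 0.00175). For Zfp367 and Fat1 7 and 6 diabetic embryos lay below the normal range. Rp2 (-0.85 ± 0.21), Rammet (-0.95 ± 0.25) and the Polycomb protein Cbx7 (-0.72 ± 0.20) were lower, the call of the last being lost without any 1 of 3 litters. Gm10800, a predicted gene, differed by -1.66 ± 0.45 but was not called without litter D24M15 (adjusted p = 0.0843). The differences of Foxk1 (-0.90 ± 0.27), Schip1 (-0.76 ± 0.23) and Gramd4 (-0.71 ± 0.16) were called by embryo while their litter means did not differ detectably (exact permutation p = 0.0583, 0.378 and 0.0717).

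The remaining lists are set beside the same 4.88% higher and 3.59% lower. Splicing factors had 1.89% higher and 5.66% lower, imprinted genes 4.55% higher, and matrix genes 4.55% in each direction. Of 53 splicing factors Hnrnpa1 was higher (0.34 ± 0.10) and Srsf5 (-0.40 ± 0.12), Hnrnpll (-0.21 ± 0.06) and Srsf10 (-0.26 ± 0.08) were lower. Of 22 imprinted genes 1 was called, the non-coding growth regulator H19, from 2678 to 5437 with a median of 3855 and from 3421 to 10513 with a median of 4982 (0.46 ± 0.13, adjusted p = 0.0197), while its neighbour Igf2 was not (0.01 ± 0.10). Of 22 matrix genes fibronectin (Fn1, -0.35 ± 0.11) was lower by embryo while its litter means did not differ detectably (exact permutation p = 0.108), and fibulin Fbln1 was higher (0.30 ± 0.10). Of 5 sex-linked genes 0 were called, and of 7 nuclear RNAs Rn7sk was the single call.

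Of the 83 called genes that the naming rule picked, 74 differed between litters at an unadjusted exact permutation p under 0.05, and 9 did not. All were called on these same libraries. For the 12 largest in each direction the rule also asked for an unadjusted p under 0.05 on litter sums. The count of 74 is therefore a description and no separate support. With litter as a random block 43 of the 83 remained called. Those not called then included, besides genes said above to be lost, Rammet, Foxk1, Rp2, Fat1, Schip1, Cbx7, Gramd4, Gm10800, Hist1h3b, Myl4, Pfkl, Mlxip, Lss, Acaa2, Utp20, Gss, Phlda3, Dusp1, Mcm7, Wnt5a, Celsr1, H19 and Fbln1. The named splicing and heat shock genes, Ei24, Il17rd and Fn1 were not called in that fit either. Leaving out each of the 13 litters in turn, 45 stayed called every time and 38 were lost at least once, including 24 without litter N28M05 and 23 without D28M31, and the total ran from 302 genes higher without N28M05 to 633 without N28M06.

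To ask whether these differences belonged to 7 to 9 somite pairs, 34 younger embryos with 5 or 6 somite pairs were added in a single fit of 66 embryos. The effect of maternal diabetes differed between the stages for 984 of 11304 genes (8.7%), and for 33 of the 83 named genes, which is a description since these were chosen on the later stage. Of the 19 younger and 13 older litters, 10 gave embryos to both stages. Myl7 differed by -0.21 at 5 to 6 somite pairs (adjusted p = 0.493) and by 0.69 at 7 to 9, a difference of 0.91 (adjusted p = 0.0204). Gpi1 differed by 0.04 and 0.51, and Lrp6 by 0.10 and -0.43. Arrdc4 was higher at both stages, by 0.61 (adjusted p = 0.0357) and 0.84, and the difference between the stages was not detectable (adjusted p = 0.553). With counts summed per litter and stage, 1 of the 83, Gm10800, kept an adjusted p under 0.05 for the difference, and 42 had an unadjusted p under 0.05.

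**Figure D5:**
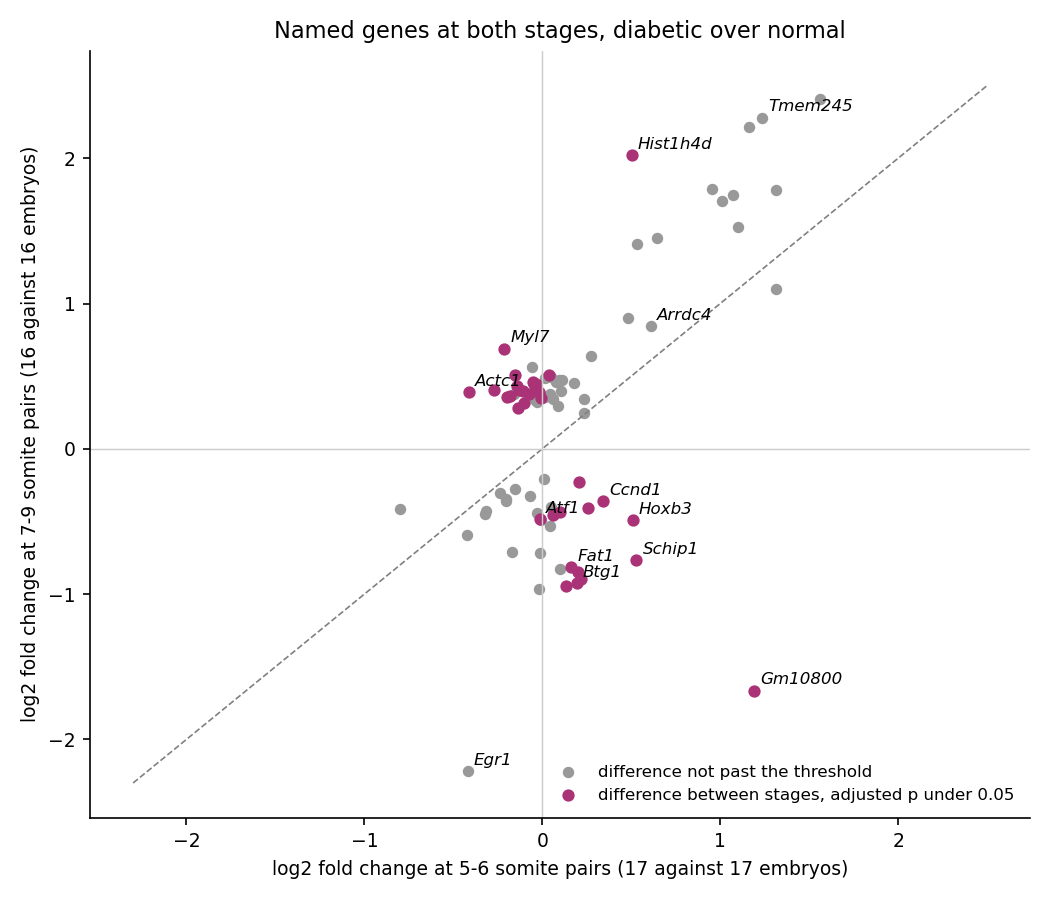
Log2 fold change, diabetic over normal, of the named called genes at 5 to 6 somite pairs (horizontal axis) and at 7 to 9 (vertical axis), a point per gene, with equal values on the dashed line and genes whose effect differed between the stages in purple. Arrdc4 lies at 0.61 and 0.84, and Myl7 at -0.21 and 0.69.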

How the data were processed

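The deposited values were raw UMI counts per gene for 47643 genes in 136 libraries, made by the authors from QuantSeq 3′ FWD libraries of Trizol-extracted RNA (STAR, HTSeq and mm10 in the submitters' processing notes, versions not given in the sources used here). A 3′ tag is counted per molecule, so levels do not scale with transcript length. Counts were tested with edgeR 4.0.16 (quasi-likelihood test, TMM, filterByExpr at a minimum count of 10, Benjamini-Hochberg adjustment, R 4.3.3) for condition only, after a check on simulated data. Normalised counts are counts divided by DESeq2 1.42.0 size factors, the scale used by the authors. The litter test was a two-sided exact permutation test of litter means of log2(normalised count + 1) over all splits of the 13 litters into 6 and 7, for 104 genes, unadjusted. Sequences and lengths came from GENCODE M21 (GRCm38) and RefSeq. Log2 fold changes carry standard errors. Replicates are separate embryos, and those of 1 litter share a dam, so p-values over embryos also rest on the spread within litters.

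Named genes were protein-coding genes called, with a mean of at least 20 in a group and an unadjusted p under 0.05 on litter sums, the 12 largest in each direction. To these were added up to 10 called on litter sums, up to 3 called members of each of 44 lists, and up to 2 abundant members of lists without calls. Other list members given with values, such as Txnip and Nkx2-5, and the transporters Slc2a1 and Slc2a3 were chosen for their known role after values were seen. Members and lists were chosen with earlier results of these data known. A few genes that the rule picked are not reported here. Duplicate libraries and yolk sacs were not used in the tests. Alternatives were DESeq2, RLE normalization (edgeR), other filters, covariates (somite number and sex, and the number after the first letter of the title), litter as a random block (limma 3.58.1, litter correlation 0.128), litter sums, and each litter left out. Added after seeing the data were the short non-coding share as a covariate, trends on length and GC removed per library (lowess span 0.3), leaving out D24M15G, D24M15J or both, and leaving short non-coding and histone genes out before normalization.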

Additional observations from a re-analysis of the deposited data

Results flagged for a closer look

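For 33 named genes the effect of maternal diabetes differed between 7 to 9 and 5 to 6 somite pairs (edgeR interaction, adjusted p under 0.05), and the values below are the log2 fold change at the later minus that at the earlier stage. They were chosen on the later stage, which raises such differences, and with counts summed per litter and stage only Gm10800 passed. In heart and muscle the differences were 0.91 for Myl7 and 0.81 for Actc1. In glucose metabolism they were 0.48 for Gpi1, 0.46 for Aldoa, 0.55 for Pfkl and -0.51 for Mlxip. In mitochondria they were 0.52 for Etfb, 0.42 for Ndufa11, 0.37 for Cox6a1 and 0.49 for Ndufs7, and for ribosomes 0.54 for Rps19, 0.57 for Rpl8, 0.50 for Mrpl28, 0.43 for Mrpl18 and -0.43 for Utp20. Fkbp4 differed by 0.42, Gsta4 by 0.68, Slc46a1 by 0.67, Crabp1 by 0.59 and H19 by 0.53. In signalling and growth the values were -0.69 for Ccnd1, -0.53 for Lrp6, -0.65 for Wnt5a and -0.99 for Hoxb3. Of the genes with large differences, Hist1h4d stood at 1.53, Gm10800 at -2.84, Rammet at -1.08, Btg1 at -1.11, Foxk1 at -1.11, Rp2 at -1.04, Fat1 at -0.97, Schip1 at -1.28 and Atf1 at -0.47.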

How the results depend on the processing

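Against 553 genes higher and 413 lower, DESeq2 called 886 and 523, RLE normalization 581 and 404, and the title number as a covariate 1016 and 883. Litters of title number 28 alone gave 534 and 274. Litter as a random block gave 210 and 104, counts summed per litter 7 and 1, and 1 embryo per litter 3 and 1. The short non-coding share as a covariate gave 3 and 0, where Rn7sk turned to -0.15, and removal of length and GC trends 430 and 260. Leaving out 1 litter gave 302 to 633 higher (fewest without N28M05) and 171 to 447 lower (fewest without D28M31). Of 83 named called genes 83 kept the call with DESeq2, 62 with trends removed and 2 with litter sums. Differences between stages fell from 33 to 1 with litter sums. No paired analysis was possible because diabetic and normal embryos share no dam. Depth limits genes near 10 counts, and intervals cover the spread between these embryos only. Why a count moved was not tested.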

Other observations

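Beyond protein-coding genes, 33 of 134 tested genes annotated as to be experimentally checked were lower in diabetic embryos and 0 higher (median log2 fold change -0.44), whereas 7 of 10 tested mitochondrial tRNA genes were higher and 0 lower (1.53), and the 2 mitochondrial rRNA genes were not called (0.025). Of 60 processed pseudogenes 6 were higher and 0 lower (0.17). These classes were not chosen beforehand and are given as values.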
